A study of Mus musculus with 45 samples.

Results

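The comparison concerns 11 of the 45 arrays of a series on mouse brain tumours: 3 of genotype Pdgfra E7 del, with titles numbered 53 to 55, and 8 of genotype EGFRvIII, with titles 41 to 48. Membership was taken from the genotype label and the title number, and from no measured value. Both groups also carried p53null in the genotype label and were of strain CD-1 nude, a glioblastoma disease model with mouse brain as the source. The series description states that wild-type PDGFRA or 6 mutants of it were expressed from retroviral constructs in cultured primary astrocytes of p53-null mice, and it does not describe how EGFRvIII was introduced. The labels do not expand the name E7 del, give no animal ages, and do not say whether the arrays of a group came from separate cultures, grafts or animals. The p-values therefore measure only the spread between arrays within genotypes. In the main fit this spread was pooled over all 45 arrays in 8 genotype groups, not taken from the 11 arrays alone. Total RNA was hybridised to Affymetrix 3' arrays, and all levels below are log2 signals of probe sets, on which a difference of 1 is 2-fold. Where other genotypes are given as context, they are V544ins and E10 del.v2 (6 arrays each with titles 41 to 64), the single Pdgfra WT array, and the arrays with titles 1 to 30.

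PDGFRA and EGFR are receptor tyrosine kinases that dimerise on binding their ligands and signal through the RAS-ERK and PI3K pathways. In the brain, PDGFRA marks oligodendrocyte progenitors, whose division PDGF drives, and the gene is amplified or mutated in some high-grade gliomas. EGFRvIII is a tumour-derived receptor that lacks part of the extracellular domain and signals without ligand. The comparison asks how tumours of 1 Pdgfra mutant differ from tumours driven by a different activated receptor. Since each array holds the RNA of a whole tumour piece, fewer cells of a type and less RNA per cell cannot be told apart.

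Markers of glial tumour and of brain were present in both groups. The glial lineage factor Olig2 ran from 9.46 to 11.29 in E7 del and from 7.61 to 11.29 in EGFRvIII, and Sox10 from 10.53 to 11.76 and from 6.20 to 11.53. The macrophage marker Aif1 was at 8.60 to 9.22 and 7.93 to 9.69, whereas the T cell gene Cd3e stayed at 3.39 to 3.55 and 3.18 to 3.97, under the table median of 4.79. Arrays within the groups were not alike. EGFRvIII replicates 4, 5 and 6 had scores of 82.9, 103 and 68.27 on principal component 2, which held 13.6% of the variance of the 45 arrays, while the other 5 ran from -20.43 to 0.11 and the E7 del arrays from -35.18 to 12.99. Neuronal transcripts were highest in replicate 1 of each group. As a measure of RNA quality, the 3' probe set of Actb exceeded its 5' counterpart by 0.56 to 0.66 in E7 del and by 0.48 to 0.87 in EGFRvIII.

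Of 11809 genes tested, 59 were called at an adjusted p under 0.05 (limma, Benjamini-Hochberg over all genes tested), which is 0.50% of them. In E7 del 25 genes rose (0.212%) and 34 fell (0.288%), and 37 of the 59 differed at least 2-fold. The groups did not overlap in 279 genes (2.36%), with all E7 del arrays above all EGFRvIII arrays in 122 (1.03%) and below them in 157 (1.33%), and 44 of the 59 called genes were among these. The median difference over all genes tested was -0.0014, and 1527 genes (12.9%) had an unadjusted p under 0.05. Calls were ranked by size with predicted, RIKEN, clone and unnamed genes passed over, among them A930003A15Rik, which rose by 2.73. Of the calls left, those that rose most were the Y-linked Uty, the kainate receptor gene Grik3, and Foxf1 and Fendrr, a forkhead factor gene and the long non-coding RNA gene beside it. Those that fell most were Aspa, the aspartoacylase of oligodendrocytes, Ltbp1, which binds latent TGF-beta, and Mxra8, named for its link to matrix remodelling.

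**Figure D1:**
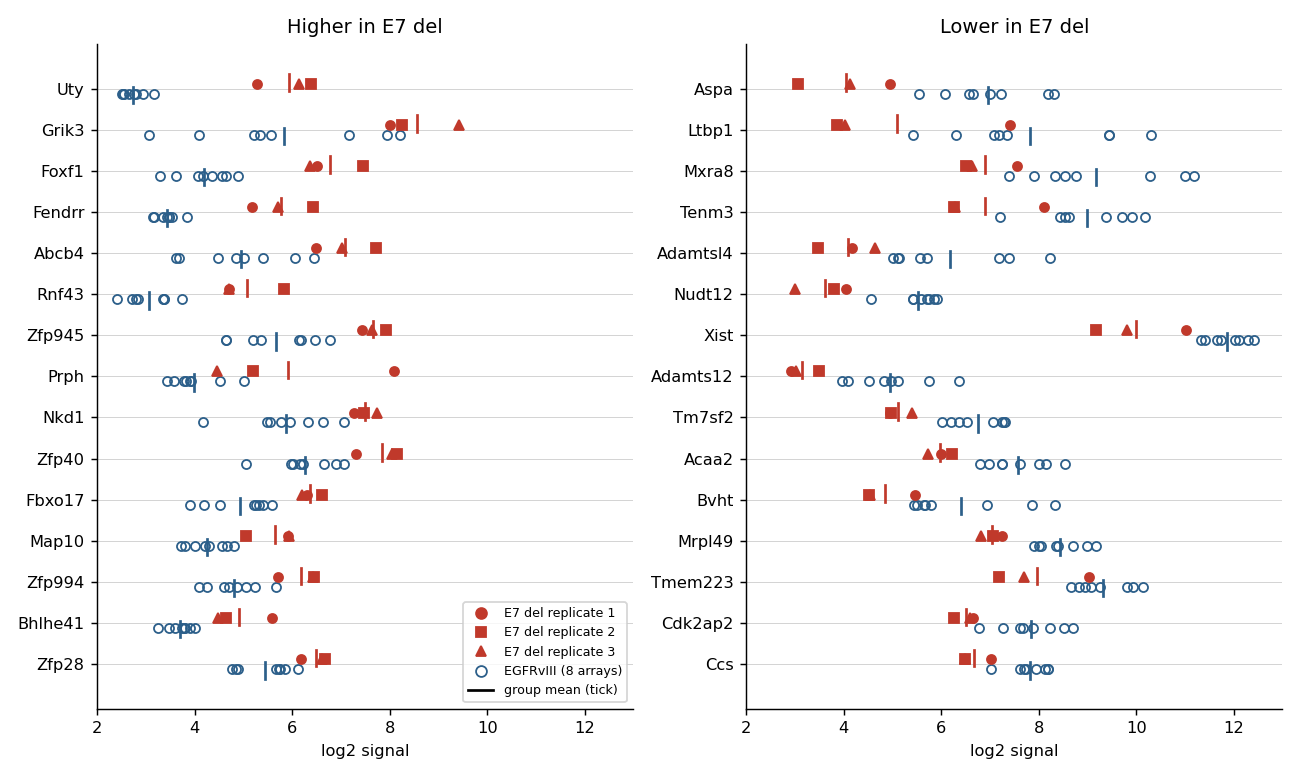
Log2 signals of the 15 calls that rose most and the 15 that fell most in E7 del (red, 1 marker shape per array) against EGFRvIII (blue open circles, 8 arrays), with a tick at each group mean. Predicted, RIKEN, clone and unnamed genes were passed over. The E7 del arrays of Foxf1 sit between 6.37 and 7.45, above all EGFRvIII arrays, which end at 4.89, whereas E7 del replicate 1 of Ltbp1, at 7.40, lies among the EGFRvIII arrays.

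The number of calls depended on the arrays in the fit. Without E7 del replicate 2 it was 10, without E7 del replicate 3 it was 14, and without E7 del replicate 1 it was 115. Among the EGFRvIII arrays, leaving out replicate 4 or 5 gave 24 and 23, and leaving out replicate 1, 2, 7 or 8 gave 128, 115, 99 and 89. Without EGFRvIII replicates 4, 5 and 6 together 32 genes were called, 16 of them among the 59. With the spread taken from only the 11 arrays 4 genes were called: Uty, Fendrr, Foxf1 and the RIKEN gene A930003A15Rik. With only the 24 arrays of titles 41 to 64 it was 6, namely Fendrr, Foxf1, A930003A15Rik, Bhlhe41, Tm7sf2 and Mrpl49. When every probe set of a gene was averaged, 9 of the 30 named calls missed the threshold, at adjusted p-values of 0.0526 to 0.0967 (Uty, Zfp945, Nkd1, Zfp28, Ltbp1, Tenm3, Adamtsl4, Xist and Bvht). Of the 30 named calls, Foxf1, Fendrr, Zfp945, Zfp40 and Mrpl49 stayed past the threshold whichever of the 11 arrays was left out.

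Foxf1 encodes a forkhead transcription factor of mesenchymal tissue around the gut and lung, a known target of hedgehog signalling, and Fendrr is transcribed from the opposite strand beside it. Foxf1 measured 6.50, 7.45 and 6.37 in the E7 del arrays. In EGFRvIII its lowest value was 3.28, the median 4.27 and the highest 4.89. The groups did not overlap. The difference was 2.58 ± 0.39 (SE), or 5.97-fold, with an adjusted p of 0.000324. A second Foxf1 probe set, of lower signal, was at 3.96, 5.29 and 3.72 against 2.99 to 3.98, and there the groups overlapped. Fendrr measured 5.18, 6.43 and 5.71 against a lowest value of 3.14, a median of 3.45 and a highest of 3.85 in EGFRvIII. All 8 EGFRvIII arrays were below the table median of 4.79. The difference was 2.35 ± 0.31, or 5.09-fold, with an adjusted p of 4.72e-05, the smallest of all genes. Fendrr passed the filter on low signals only through the E7 del arrays, the single such gene among the 59, and it was also called with no filter. Replicate 2 was the highest E7 del array in both genes.

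Of the 10 measured members of the forkhead F cluster and hedgehog list 2 rose, 0 fell and 8 did not pass, beside the 0.212% of all genes that rose, and the list's median difference was -0.04. At an unadjusted limma p under 0.05 there were 5 of 10, against 12.9% of all genes: Foxf1 and Fendrr with positive differences and Gli2, Smo and Ptch1 with negative ones. The 2 that rose were Foxf1 and Fendrr. The list was written with earlier results of these data known, and Fendrr entered the test only through the E7 del arrays. These counts are therefore no independent support for the 2 genes. The next measured genes on the Foxf1 side of the pair, Mthfsd and Foxc2, differed by -0.06 ± 0.20 and 0.04 ± 0.48, and no gene on the Fendrr side was looked at. The hedgehog receptor gene Ptch1, itself induced by the pathway, was at 8.75, 8.56 and 8.69 in E7 del, below the 8.82 to 9.60 of EGFRvIII, with a difference of -0.53 ± 0.25 (adjusted p = 0.352). The pathway's transcription factor gene Gli2 differed by -1.12 ± 0.42 (adjusted p = 0.217), its signal transducer Smo by -0.86 ± 0.40 (0.357) and its inhibitor Hhip by -0.02 ± 0.31 (0.993), none of which passed.

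The sequence upstream of Fendrr is shown because this transcript had the smallest p of the comparison, and the sequences upstream of Tm7sf2 and Mrpl49 because these genes had the 2 smallest p-values of those that fell. Each is the 250 bases before the start in RefSeq (GRCm38.p6), read 5′ to 3′ on the strand of the gene, with motif matches in capitals.
Fendrr, chr8:121083111-121083360, strand -: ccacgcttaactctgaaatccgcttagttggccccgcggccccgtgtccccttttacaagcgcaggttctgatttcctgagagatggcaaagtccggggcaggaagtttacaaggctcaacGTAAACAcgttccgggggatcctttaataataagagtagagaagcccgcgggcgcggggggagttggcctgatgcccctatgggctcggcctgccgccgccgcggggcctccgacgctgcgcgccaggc
Tm7sf2, chr19:6067851-6068100, strand -: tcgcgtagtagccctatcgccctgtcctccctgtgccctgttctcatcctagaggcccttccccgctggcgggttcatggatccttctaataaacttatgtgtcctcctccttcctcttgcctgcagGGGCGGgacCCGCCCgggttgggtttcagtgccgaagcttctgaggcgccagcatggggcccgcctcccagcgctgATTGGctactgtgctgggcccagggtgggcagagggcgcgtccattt
Mrpl49, chr19:6057756-6058005, strand -: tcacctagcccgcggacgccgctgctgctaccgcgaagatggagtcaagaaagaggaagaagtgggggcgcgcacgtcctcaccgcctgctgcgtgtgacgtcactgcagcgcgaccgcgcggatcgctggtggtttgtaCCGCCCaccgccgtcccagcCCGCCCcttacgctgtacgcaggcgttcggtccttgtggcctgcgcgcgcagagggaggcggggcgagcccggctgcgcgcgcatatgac
Motifs were searched on both strands of the same 250 bases of 32851 RefSeq starts, and none of the 6 letter strings contains another. The capitals in the Fendrr window are 1 match of the forkhead core TGTTTAC, in its reverse complement, which 3.17% of all windows hold. The Tm7sf2 window has 2 matches of the GC box CCGCCC (in 32.7% of windows) and 1 of the CCAAT box (33.8%), and the Mrpl49 window has 2 GC boxes. The TATA box TATAAA (12.4%), the GLI string GACCACCCA (0.225%) and the ETS string CCGGAAGT (2.88%) had no match in these 3 windows, which says only that these letters are not there. The windows hold 23, 14 and 35 CpG dinucleotides, against a median of 6 over all windows. No Foxf1 window was matched.

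No array of another genotype reached the E7 del values of Foxf1, whereas for Fendrr 1 V544ins array lay within the E7 del range. In the V544ins arrays of titles 41 to 64 Foxf1 had a lowest value of 3.30, a median of 4.78 and a highest of 6.27, and in E10 del.v2 of those titles 3.78, 4.57 and 5.17. Fendrr ran from 3.17 to 5.56, with a median of 3.84, in V544ins and from 3.22 to 4.0 in E10 del.v2. The WT array had 4.73 and 3.91. In the arrays with titles 1 to 30 Foxf1 did not exceed 4.24 and Fendrr did not exceed 3.65. The highest V544ins values, 6.27 and 5.62 for Foxf1 and 5.56 and 4.84 for Fendrr, belonged to titles 52 and 51, the numbers next to the E7 del titles 53 to 55. The labels do not say what the numbers stand for, and their part in the difference was not tested. Set against the mean of V544ins and E10 del.v2 in titles 41 to 64, E7 del was higher by 2.10 ± 0.44 for Foxf1 and 1.89 ± 0.36 for Fendrr, both with an adjusted p of 0.321. With the spread taken from all 45 arrays the same differences had adjusted p-values of 0.00214 and 0.00078, and without V544ins replicate 7, which is title 52, the Fendrr difference was 2.04 with an adjusted p of 0.00726. The step from E7 del to these mutants thus passed or missed the threshold by the choice of arrays. V544ins and E10 del.v2 themselves differed from EGFRvIII by 0.48 ± 0.31 for Foxf1 (adjusted p = 0.413) and 0.46 ± 0.25 for Fendrr (0.335).

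**Figure D2:**
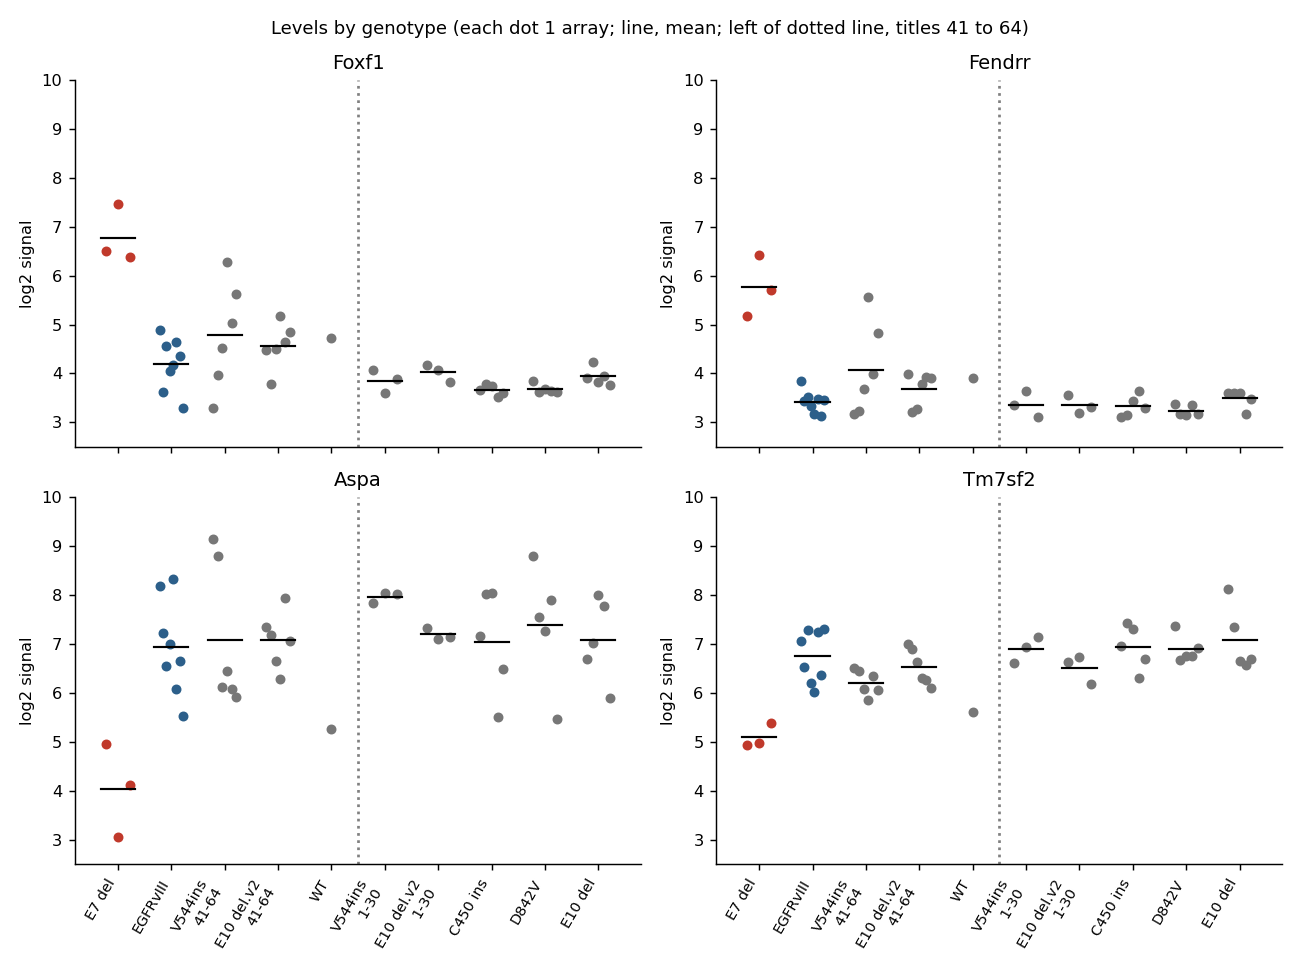
Log2 signals of Foxf1, Fendrr, Aspa and Tm7sf2 in every array, by genotype, with a line at each group mean (the single WT array has none) and a dotted line between the arrays with titles 41 to 64 and those with titles 1 to 30. For Foxf1 the 3 E7 del arrays start at 6.37 and the highest array of any other genotype is at 6.27, while for Aspa the E7 del arrays end at 4.96 and the lowest other array, the WT array, is at 5.26.

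Nkd1 and Rnf43, which encode inhibitors of the Wnt pathway that the pathway itself induces, were both higher in E7 del. Nkd1 measured 7.27, 7.48 and 7.73 against a lowest value of 4.17, a median of 5.87 and a highest of 7.05, a difference of 1.63 ± 0.35 (adjusted p = 0.02) that was 0.62 when all its probe sets were averaged (0.06). Rnf43, a ubiquitin ligase that removes Wnt receptors, measured 4.7, 5.83 and 4.7 against 2.41, 3.09 and 3.73, a difference of 2.01 ± 0.43 (adjusted p = 0.02). For Rnf43 every EGFRvIII array and E7 del replicates 1 and 3 lay below the table median of 4.79. Neither gene's groups overlapped. The related Wnt feedback genes were looked at after these values were seen. Of 12 such genes with a probe set 7 passed the filter on low signals, and Lef1, Notum, Sp5, Wif1 and Dkk1 did not. Of the 7 tested Nkd1 and Rnf43 rose, beside 0.212% of all genes. The set was drawn up around these 2 calls, so their count in it is no independent support. Axin2 differed by 0.89 ± 0.32 (adjusted p = 0.206), Nkd2 by 0.97 ± 0.59 (0.502) and the receptor gene Lgr5 by 0.98 ± 0.52 (0.419), while Znrf3 and Apcdd1 were at -0.09 ± 0.28 and -0.04 ± 0.35. Both calls were lost without E7 del replicate 2 or 3, with adjusted p-values from 0.15 to 0.187 for Nkd1 and from 0.0671 to 0.31 for Rnf43, and without EGFRvIII replicates 4, 5 and 6 together (0.0683 for both).

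On chromosome 17, 3 zinc finger genes that lie near each other rose. Zfp945 measured 7.43, 7.92 and 7.64 in E7 del against a lowest value of 4.63, a median of 5.75 and a highest of 6.78 in EGFRvIII, a difference of 1.99 ± 0.32 (adjusted p = 0.000723) that was 0.67 when all its probe sets were averaged (0.0684). Zfp40 measured 7.30, 8.15 and 8.06 against 5.05, 6.19 and 7.07, a difference of 1.58 ± 0.26 (adjusted p = 0.000723). Zfp994 was at 5.71, 6.45 and 6.42 against 4.09, 4.79 and 5.67, a difference of 1.38 ± 0.31 (adjusted p = 0.0293). In all 3 genes, described because they were called, every E7 del array lay above every EGFRvIII array, as in 1.03% of all genes. Genes between or beside them, looked up after these values were seen, were Gm7072, which was also above in every array but had an adjusted p of 0.0547 for a difference of 0.78 ± 0.20, and Zfp944 and Zfp758, whose groups overlapped at 0.37 ± 0.28 and 0.37 ± 0.24. Probe sets of such related genes can share sequence, which was not tested. V544ins and E10 del.v2 also exceeded EGFRvIII, by 1.49 ± 0.26 for Zfp945 (adjusted p = 0.0149), 1.5 ± 0.21 for Zfp40 (0.00402) and 1.37 ± 0.21 for Zfp994 (0.00707), and E7 del differed from them by 0.50 ± 0.36, 0.08 ± 0.30 and 0.01 ± 0.30. The Zfp994 call was lost without E7 del replicate 2 or 3 or EGFRvIII replicate 4 or 5 (adjusted p from 0.0561 to 0.281). Zfp28, a zinc finger gene of chromosome 7, was at 6.17, 6.67 and 6.62 against 4.77 to 6.12 (1.04 ± 0.26, adjusted p = 0.0497, and 0.61 with all its probe sets averaged, 0.0856), and its call was lost without E7 del replicate 2 or 3 or EGFRvIII replicate 1, 4 or 5 (0.0531 to 0.322).

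Grik3 encodes a subunit of kainate receptors for glutamate and was at 8.01, 8.25 and 9.41 in E7 del. In EGFRvIII it spread from 3.06 over a median of 5.46 to 8.21, so the groups overlapped, with replicates 1 and 8 at 7.94 and 8.21. The difference was 2.74 ± 0.58, or 6.66-fold (adjusted p = 0.0189), and V544ins and E10 del.v2 stood as high, at 8.66 ± 0.33 and 8.35 ± 0.25 (SD, n = 6 each). A second Grik3 probe set stayed between 2.78 and 3.37 in all 11 arrays. Of the 12 measured glutamate receptor subunits 1 rose (beside 0.212% of all genes), 0 fell and 11 did not pass, 3 had an unadjusted limma p under 0.05 (beside 12.9%), and the median difference was 0.58. The other kainate subunits Grik4 and Grik2 differed by 1.05 ± 0.47 (adjusted p = 0.341) and 1.03 ± 0.48 (0.349). The subunits were lowest in EGFRvIII replicate 5, whose list mean was 4.46 against 6.16 to 8.44 in the other EGFRvIII arrays and 7.16 to 7.54 in E7 del. The Grik3 call was lost without E7 del replicate 2 or 3 (adjusted p = 0.112 to 0.228) and without EGFRvIII replicates 4, 5 and 6 (2.01 ± 0.51, adjusted p = 0.0701).

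Other genes that rose had no list in common. Abcb4, the phospholipid transporter of bile canaliculi, measured 6.48, 7.72 and 7.03 against a lowest value of 3.62, a median of 4.93 and a highest of 6.45, a difference of 2.13 ± 0.41 (adjusted p = 0.00614) that lost its call without E7 del replicate 2 or 3 (0.0519 to 0.173). Fbxo17, a substrate receptor of ubiquitin ligases, was at 6.30, 6.61 and 6.19 against 3.91, 5.24 and 5.58 (1.44 ± 0.29, adjusted p = 0.0107), and without E7 del replicate 2 its adjusted p was 0.165. Map10, which encodes a microtubule-associated protein, measured 5.92, 5.06 and 5.94 against at most 4.8 (1.38 ± 0.32, adjusted p = 0.0381). Bhlhe41, a transcriptional repressor of the circadian clock, measured 5.59, 4.65 and 4.48 against at most 4.01 (1.21 ± 0.28, adjusted p = 0.0403). Both lost their call without any 1 E7 del array or EGFRvIII replicate 4 or 5 (0.0574 to 0.27). Prph, the neuronal intermediate filament peripherin, rested on E7 del replicate 1. It was at 8.08 there and at 5.2 and 4.45 in the other two, against 3.44 to 5.0 in EGFRvIII, and without that array the difference fell from 1.92 ± 0.47 (adjusted p = 0.0442) to 0.83 (0.348). Without E7 del replicate 2 or EGFRvIII replicate 3, 4, 5 or 6 its call was lost as well, at an adjusted p of 0.0513 or more. Small differences also passed where the arrays of a group lay close together. Gna11, a G protein alpha subunit, rose by 0.68 ± 0.11 (adjusted p = 0.000854) and Ggps1, which makes geranylgeranyl diphosphate, by 0.88 ± 0.16 (0.0043). These 2 genes lie outside the rule for named genes and were picked after their values were seen.

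Sex-linked transcripts separated the groups in part. Eif2s3y, a Y-linked translation factor gene, was at 8.52 to 8.94 in all 3 E7 del arrays. In EGFRvIII it was at 8.64, 7.25 and 8.35 in replicates 3, 4 and 5 and at 2.45 to 2.77 in the other 5. Kdm5d, a Y-linked histone demethylase gene, was high in the same arrays, at 5.59 to 7.70 in E7 del and 5.92 to 7.10 in those 3, against 2.29 to 2.98. Uty, the Y-linked relative of a histone demethylase gene, did not follow them in EGFRvIII. It measured 5.28, 6.38 and 6.14 in E7 del and 2.5 to 3.16 in all 8 EGFRvIII arrays, including 2.76, 2.55 and 3.16 in replicates 3, 4 and 5. A second Uty probe set gave 4.22, 5.01 and 4.75 against 2.56 to 3.49. Uty differed by 3.20 ± 0.76 (adjusted p = 0.0409), while Eif2s3y at 4.07 ± 1.38 and Kdm5d at 2.65 ± 0.98 did not pass (0.171 and 0.213). Xist, the RNA that coats the inactive X chromosome, measured 11.03, 9.17 and 9.82 against a lowest value of 11.32, a median of 11.87 and a highest of 12.42, a difference of -1.86 ± 0.44 (adjusted p = 0.0403). Xist was thus above 9 in every array, those with high Eif2s3y included. Whether Y-linked RNA came from tumour or from host cells was not tested. Without E7 del replicate 2 or 3 or EGFRvIII replicate 4 or 5 neither gene was called, and Uty was also lost without EGFRvIII replicate 6 (adjusted p from 0.0524 to 0.31 for Uty and from 0.0628 to 0.387 for Xist).

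Aspa, which breaks down N-acetylaspartate in oligodendrocytes and so supplies acetate for myelin lipids, fell most among the named calls. It measured 4.96, 3.07 and 4.12 in E7 del. EGFRvIII had a lowest value of 5.54, a median of 6.83 and a highest of 8.32, so the groups did not overlap. The difference was -2.90 ± 0.65, or 7.47-fold (adjusted p = 0.0293). No array of any other genotype was as low, the nearest being the WT array at 5.26. V544ins and E10 del.v2 averaged 7.08 ± 1.48 and 7.08 ± 0.57 (SD, n = 6 each), and E7 del was lower than them by -3.04 ± 0.64 (adjusted p = 0.321). Without E7 del replicate 2 or 3 or EGFRvIII replicate 4 or 5 the Aspa call was lost (adjusted p = 0.0503 to 0.322).

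Of the 16 measured myelin genes 0 rose, 1 fell (Aspa) and 15 did not pass, beside 0.288% of all genes that fell, and the median difference was -1.39. At an unadjusted limma p under 0.05 there were 8 of 16, all with negative differences, against 12.9% of all genes. Of the 16 genes 12 had a negative difference, against 50.16% of all genes. Genes of mature myelin were low in value, with Mal, a myelin proteolipid, at -2.32 ± 0.78 (adjusted p = 0.168), Mobp at -2.21 ± 0.84 (0.227), Mbp at -1.61 ± 0.59 (0.206) and the iron carrier Trf at -1.54 ± 0.45 (0.104). Differences of the opposite sign were seen for Cldn11 (0.97 ± 0.67), the galactolipid enzyme Ugt8a (0.93 ± 0.73), Fa2h (0.90 ± 0.63) and Cnp (0.84 ± 0.67), none of which passed. Mbp shows the spread behind these values, at 12.27, 7.46 and 10.84 in E7 del and 9.12 to 12.79 in EGFRvIII. The myelin list mean was 8.05, 5.62 and 7.07 in E7 del against 6.05 to 8.93.

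Ltbp1, Mxra8, Adamtsl4, Adamts12, Tenm3 and Bvht fell, and in most of them EGFRvIII replicates 4, 5 and 6 had the highest values. They were not chosen as a list, and of the 19 measured fibroblast and matrix genes 0 were called by limma, 0 had an unadjusted p under 0.05, 8 differences were positive and 11 negative, and the median was -0.07. Ltbp1, which holds latent TGF-beta in the matrix, measured 7.40, 3.86 and 4.03 in E7 del. In EGFRvIII it was at 9.45, 10.31 and 9.44 in replicates 4, 5 and 6 and at 5.42 to 7.35 in the other 5. E7 del replicate 1 thus lay at the top of those 5. The difference of -2.72 ± 0.66 (adjusted p = 0.0442) was -1.57 ± 0.54 without the 3 arrays (0.232) and -1.40 when all its probe sets were averaged (0.0967). Mxra8, a membrane protein of cell adhesion, measured 7.54, 6.50 and 6.64 against 10.28, 11.18 and 10.99 in the 3 arrays and 7.40 to 8.76 in the others (-2.28 ± 0.55, adjusted p = 0.0433, and -1.29 ± 0.43 without the 3, 0.221). Adamtsl4, which binds fibrillin, was at 4.17, 3.46 and 4.64 against 8.24, 7.39 and 7.19 and, in the others, 5.01 to 5.71 (-2.08 ± 0.51, adjusted p = 0.0489, and -1.22 ± 0.42 without the 3, 0.245). The matrix protease gene Adamts12 was at 2.92, 3.49 and 3.01 against 3.95 to 6.37 (-1.80 ± 0.40, adjusted p = 0.0293, and -1.5 ± 0.41, 0.0992). Tenm3, a teneurin of neuronal wiring, was at 8.11, 6.26 and 6.29 against 7.20 to 10.18 (-2.10 ± 0.49, adjusted p = 0.0403, and -1.54 ± 0.49, 0.192). Bvht, a long non-coding RNA of heart development, was at 5.45, 4.52 and 4.54 against 7.87, 8.33 and 6.93 and, in the others, 5.45 to 5.78 (-1.56 ± 0.38, adjusted p = 0.0466, and -0.77 ± 0.22, 0.121). Each of these 6 genes also lost its call without E7 del replicate 2 or 3 and without EGFRvIII replicate 5 alone, and all but Adamts12 without replicate 4 or 6 alone, with adjusted p-values between 0.055 and 0.401. For Adamtsl4 and Adamts12 leaving out E7 del replicate 1 ended the call as well.

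Tm7sf2, Acaa2 and Nudt12, genes of metabolic enzymes, were among those that fell. Tm7sf2, a sterol reductase of cholesterol synthesis, measured 4.94, 4.97 and 5.40 against a lowest value of 6.02, a median of 6.80 and a highest of 7.30, without overlap (-1.65 ± 0.30, 3.14-fold, adjusted p = 0.00313). Without E7 del replicate 2 its adjusted p was 0.058. V544ins and E10 del.v2 had 6.21 ± 0.26 and 6.54 ± 0.37 (SD, n = 6 each), and E7 del was lower by -1.27 ± 0.26 (adjusted p = 0.321). Of the 16 measured cholesterol synthesis genes 0 rose, 1 fell (Tm7sf2, beside 0.288% of all genes) and 15 did not pass. A negative difference was found in 14 of 16, against 50.16% of all genes, an unadjusted limma p under 0.05 in 6 of 16, against 12.9%, and the median was -0.39. Stard4, a cholesterol carrier, differed by -0.95 ± 0.36 (adjusted p = 0.227), and the isoprenoid enzyme genes Fdps and Fdft1 by -0.87 ± 0.34 (0.235) and -0.86 ± 0.35 (0.261). The cholesterol list mean was 6.91, 7.22 and 7.36 in E7 del against 6.99 to 8.23. Acaa2, which ends mitochondrial fatty acid oxidation cycles, measured 5.98, 6.22 and 5.72 against 6.80, 7.44 and 8.54 (-1.60 ± 0.36, adjusted p = 0.0293), and its call was lost without any 1 E7 del array or EGFRvIII replicate 4 or 5 (0.0501 to 0.224). Nudt12, a hydrolase of nicotinamide dinucleotides, measured 4.04, 3.81 and 3.0 against 4.55, 5.64 and 5.90 (-1.91 ± 0.45, adjusted p = 0.0409), and its call was lost without E7 del replicate 2 or 3 or EGFRvIII replicate 4 or 5 (0.0661 to 0.302).

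Of the 34 genes that fell 14 lie on chromosome 19, which holds 409 of the 11783 tested genes with a chromosome. This grouping was seen in the data and is given as a description, with no test. The chromosome 19 genes among the 15 named calls that fell most were Tm7sf2, the mitochondrial ribosome gene Mrpl49, Tmem223, the CDK2-associated gene Cdk2ap2 and the copper chaperone gene Ccs. Mrpl49 measured 7.24, 7.05 and 6.81 against a lowest value of 7.91, a median of 8.37 and a highest of 9.17 (-1.41 ± 0.22, adjusted p = 0.000723). Cdk2ap2 was at 6.64, 6.27 and 6.59 against 6.77, 7.78 and 8.70 (-1.33 ± 0.27, adjusted p = 0.0107), and Ccs at 7.02, 6.49 and 6.48 against 7.03, 7.85 and 8.20 (-1.16 ± 0.22, adjusted p = 0.00459). Tmem223 overlapped, at 9.03, 7.19 and 7.69 against 8.66 to 10.13 (-1.35 ± 0.29, adjusted p = 0.0237). The calls of Cdk2ap2, Ccs and Tmem223 were lost without E7 del replicate 2 or 3 (adjusted p from 0.0671 to 0.387). The other 9 were the RNA polymerase II subunit gene Polr2g, Ndufs8, Sdhaf2, Dnajc4, Btaf1, Uhrf2, Ttc9c, Ric1 and Nmrk1, with differences from -0.55 to -1.07.

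The lower signal was spread over the chromosome. Of its 409 genes 364, or 89%, had a negative difference, against 50.16% of all genes, and their median difference was -0.45. When the genes were split into 10 groups in gene order, the medians of the groups ran from -0.50 to -0.30. The 3 E7 del arrays did not share this equally. Relative to the EGFRvIII mean, the chromosome's median deviation was -0.63 in replicate 2 and -0.61 in replicate 3 but -0.17 in replicate 1. Among the EGFRvIII arrays it was -0.40 in replicate 1, -0.12 in replicate 2 and 0.02 to 0.15 in the other 6, so E7 del replicate 1 lay within the EGFRvIII range. Of the other genotypes V544ins replicate 7 was at -0.49 and E10 del.v2 replicates 5 and 6 at -0.48 and -0.46. No other autosome had a median difference beyond -0.23, that of chromosome 14, followed by -0.20 for chromosome 3 and -0.17 for chromosome 15, and the highest was 0.11 for chromosome 1. DNA copy number was not measured in these data, and the cause of the lower signal was not tested.

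**Figure D3:**
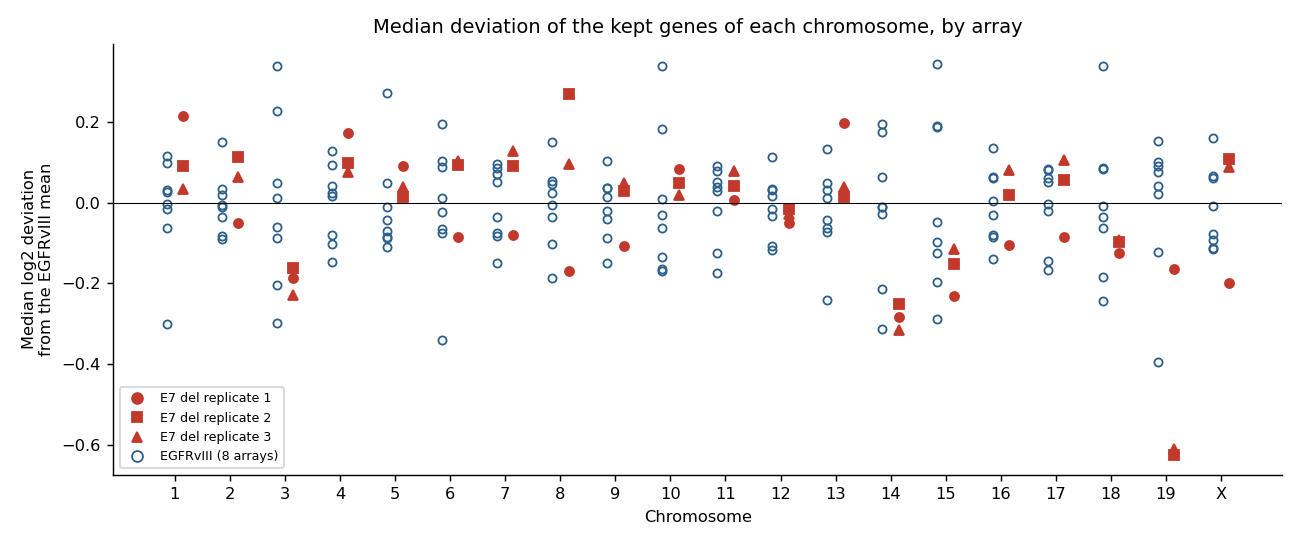
Median log2 deviation from the EGFRvIII mean of the tested genes of each chromosome (Y left out), for each E7 del array (red) and each EGFRvIII array (blue circles). On chromosome 19 E7 del replicates 2 and 3 are at -0.63 and -0.61, below every other point of the plot, and E7 del replicate 1 is at -0.17.

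**Figure D4:**
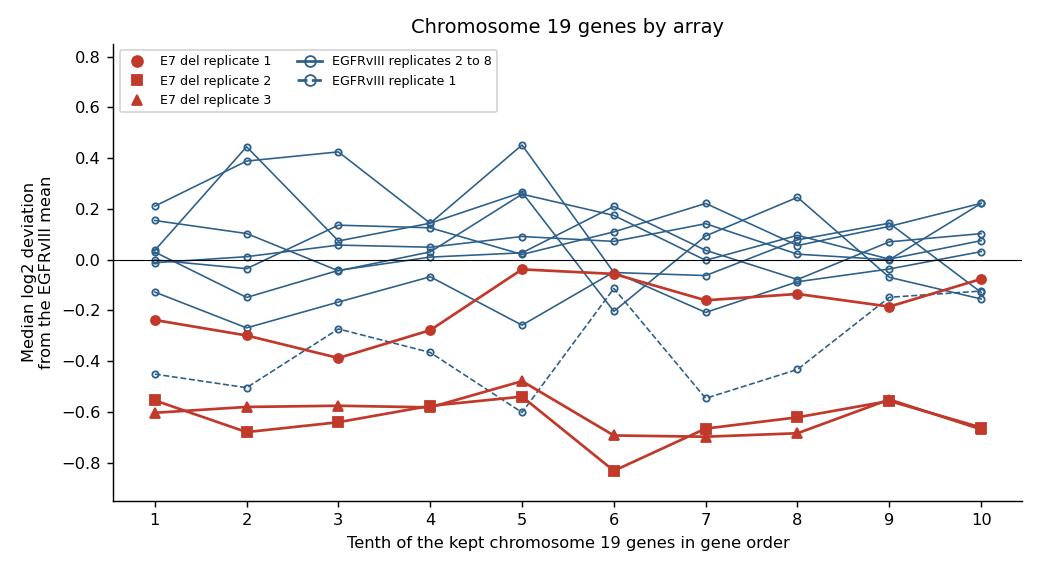
Median log2 deviation from the EGFRvIII mean in 10 groups of chromosome 19 genes taken in gene order, 1 line per array. E7 del replicates 2 and 3 stay between -0.83 and -0.48 in every group, E7 del replicate 1 runs from -0.39 to -0.04, and EGFRvIII replicate 1 (dashed) reaches -0.60.

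The receptors themselves did not separate the groups. Pdgfra measured 8.14, 9.06 and 8.02 in E7 del. In EGFRvIII its lowest value was 4.53, the median 7.80 and the highest 9.41, with the 2 lowest in replicates 4 and 5. The difference was 1.19 ± 0.79 (adjusted p = 0.562). Egfr was at 6.28, 3.90 and 4.83 against 4.53, 5.85 and 8.20 (-1.04 ± 0.63, adjusted p = 0.498), and the highest EGFRvIII values were again in replicates 4, 5 and 6, at 7.20, 8.20 and 6.89. In both Egfr probe sets whose E7 del arrays lay below all EGFRvIII arrays the signal was low, at 3.13 to 3.46 against 3.46 to 4.54 and at 2.70 to 2.77 against 2.85 to 3.27. The labels do not say which species' receptor sequence was introduced or whether the probe sets lie within it, so these levels are no check of the genotype.

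None of the genes that read out receptor signalling passed. Of 6 measured PDGF receptors and ligands, 8 ERBB receptors and ligands, 21 genes of ERK output and feedback, 17 of the FOXO and PI3K axis, 7 CDK inhibitors and 25 cell cycle genes, 0 rose and 0 fell, with median differences of 0.32, -0.01, -0.31, 0.07, 0.23 and 0.01. At an unadjusted p under 0.05 (limma) the counts were 1, 1, 4, 2, 1 and 0, beside 12.9% of all genes. The list mean of ERK output was 8.40, 8.06 and 7.92 in E7 del against 7.89 to 8.89. Phlda1, which ERK induces, was at 0.87 ± 0.37 (adjusted p = 0.293), the pathway inhibitor Spry2 at -0.62 ± 0.29 (0.354) and the AP-1 gene Fosl1 at -1.43 ± 0.65 (0.336). Among ERBB genes the neuregulin receptor Erbb3 was at 10.01, 9.53 and 10.11 against 4.84 to 10.83 (1.99 ± 0.93, adjusted p = 0.354) and the ligand gene Tgfa at 9.95, 10.68 and 10.79 against 6.81 to 10.97 (1.16 ± 0.68, 0.481). Of the PDGF ligands Pdgfd differed by -1.18 ± 0.52 (adjusted p = 0.315) and Pdgfc by -0.51 ± 0.34 (0.568). The CDK4 and CDK6 inhibitor gene Cdkn2b was at 7.87, 8.01 and 7.96 against 7.89 to 10.99 (-1.5 ± 0.59, adjusted p = 0.25). A p that misses the threshold does not show equal levels, and with 3 against 8 arrays the intervals of these differences are wide.

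Lists of tumour state and cell type were shifted in value without calls. All 15 measured oligodendrocyte progenitor markers and all 15 proneural glioma markers had a positive difference, with medians of 1.28 and 0.77, and 0 of either list passed (2 of each at an unadjusted limma p under 0.05, beside 12.9% of all genes). Over all genes 50.16% of the differences were negative. The 2 lists share members such as Olig1 and Olig2. The progenitor list mean was 9.91, 11.01 and 11.14 in E7 del. In EGFRvIII it was 7.60, 6.56 and 8.38 in replicates 4, 5 and 6 and 9.59 to 11.16 in the other 5, so the E7 del arrays lay within the range of those 5. The proneural mean was 9.72, 10.58 and 10.57 against 8.07, 7.91 and 8.75 in the 3 arrays and 9.65 to 10.35 in the others. The extracellular matrix gene Tnr was at 10.54, 10.78 and 12.10 against 5.61 to 12.02 (1.69 ± 0.83, adjusted p = 0.386), and Dpysl4, a collapsin response protein gene, was above EGFRvIII in every array, at 7.94, 7.76 and 7.72 against 3.69 to 7.69 (1.69 ± 0.47, adjusted p = 0.0837). Of 13 Notch genes 0 were called (4 at an unadjusted limma p under 0.05), with the effector genes Hey2 and Hes5 at 2.22 ± 0.83 (adjusted p = 0.218) and 1.71 ± 0.61 (0.202).

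The mesenchymal and TGF-beta lists had negative median differences, and their means were highest in EGFRvIII replicates 4, 5 and 6. Of 24 measured mesenchymal glioma markers 18 had a negative difference (against 50.16% of all genes), the median was -0.42 and 0 passed. Of 15 mesenchymal transcription factors 0 passed, with a median of -0.26 (2 of each list at an unadjusted limma p under 0.05). Of 18 TGF-beta ligands, receptors and targets 1 fell, Ltbp1 (0.288% of all genes fell), 0 rose and 17 did not pass, with 4 of 18 at an unadjusted limma p under 0.05 against 12.9% of all genes. Their mean was 7.36, 6.10 and 6.33 in E7 del. In EGFRvIII it was 7.82, 7.90 and 7.42 in replicates 4, 5 and 6 and 6.08 to 6.74 in the others, all below E7 del replicate 1. The chromatin protein gene Hmga2 was at 8.18, 6.18 and 7.18 against 7.43 to 12.10 (-2.54 ± 0.75, adjusted p = 0.108) and the factor gene Twist1 at 6.13, 3.0 and 2.59 against 3.89 to 7.88 (-1.96 ± 0.63, 0.145). The receptor gene Met was at 6.60, 2.33 and 3.66 against 8.96, 9.88 and 9.15 in replicates 4, 5 and 6 and 4.03 to 5.42 in the others (-2.30 ± 0.99, adjusted p = 0.296). The mesenchymal marker mean was 8.22, 6.81 and 7.31 in E7 del against 9.61, 9.49 and 8.94 in the 3 arrays and 6.23 to 7.77 in the other 5, so that E7 del replicate 1 lay between both.

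**Figure D5:**
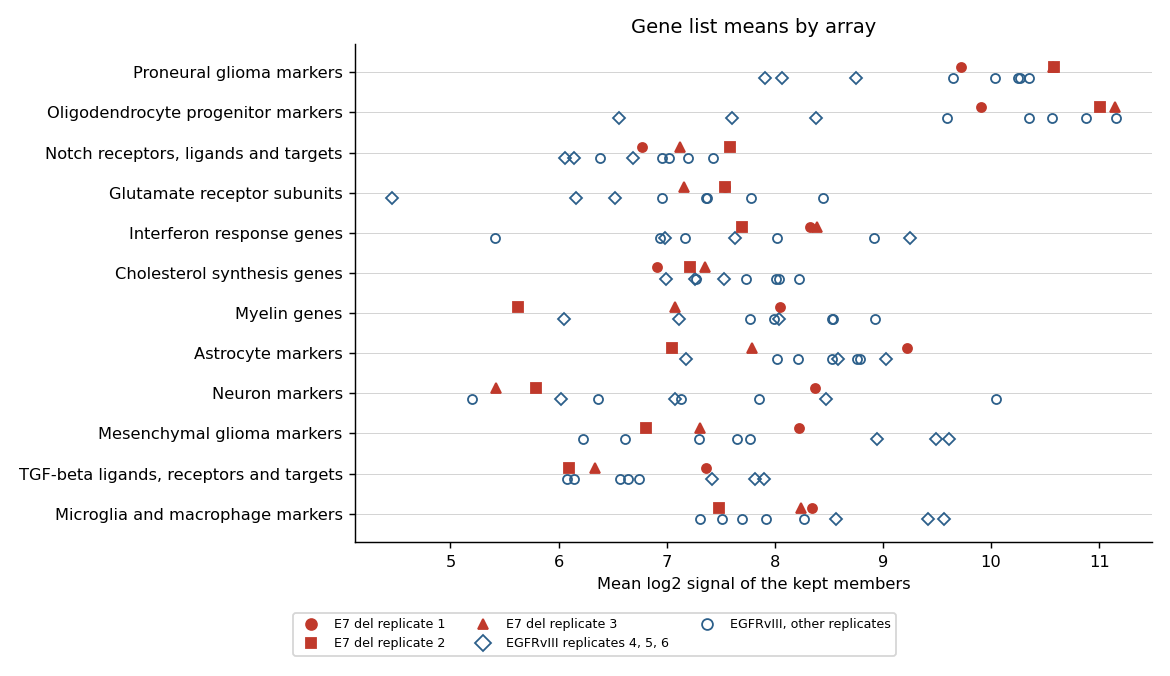
Mean log2 signal of the measured members of 12 gene lists in each array, for E7 del (red) and EGFRvIII (blue, diamonds for replicates 4, 5 and 6). In the progenitor list the diamonds end at 8.38 and all other arrays start at 9.59, whereas in the mesenchymal marker list the diamonds start at 8.94 and all other arrays end at 8.22.

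Host and immune cell lists had no calls beyond Aspa, and some, such as the neuron list, spread widely within both groups. In E7 del the endothelial, fibroblast and matrix, ependymal, granulocyte and lymphocyte list means spread little, with an SD of 0.13 to 0.21. The neuron list mean was 8.37, 5.79 and 5.42 in E7 del against 5.2 to 10.04, with 0 of 18 members called and a median difference of -0.72. The neurofilament gene Nefl went from 10.45 in E7 del replicate 1 to 4.48 and 3.10 in the others. The astrocyte mean was 9.22, 7.05 and 7.79 against 7.18 to 9.03, with 0 of 15 called. There the gap junction gene Gja1 was at 10.56, 7.21 and 7.35 against 9.46 to 11.97 (-2.36 ± 0.73, adjusted p = 0.128). The microglia and macrophage mean was 8.34, 7.49 and 8.25 against 7.31 to 9.57, with 0 of 19 called. Arg1, the arginase of alternatively activated macrophages, was at 3.04, 2.48 and 3.52, whereas EGFRvIII replicates 4, 5 and 6 had 11.53, 10.97 and 7.93 and the others 3.43 to 7.18 (-3.92 ± 1.16, adjusted p = 0.108). Of 7 MHC class II, 21 NF-kB and inflammatory, 4 granulocyte and 1 lymphocyte gene measured 0 were called, with median differences of -0.67, -0.01, -0.69 and -0.07. The same held for 14 endothelial, 6 pericyte, 19 fibroblast and matrix, 13 ependymal and 2 erythroid genes, with medians of -0.13, -0.08, -0.07, -0.11 and -0.43. None of 17 immediate early, 17 hypoxia, 19 unfolded protein, 16 neural stem and 2 Hox genes was called either. Apart from the myelin list, each of these host, immune and stress lists had 0 to 3 genes at an unadjusted limma p under 0.05. Among all genes the share was 12.9%, and the lists above it were astrocyte (3 of 15), pericyte (2 of 6) and endothelial (2 of 14). The interferon list had 0 of 15 members called and a median difference of 0.74, with means of 8.32, 7.70 and 8.39 against 5.41 to 9.25. With the mean of the neuron and myelin lists as a covariate 365 genes were called, the 59 among them. Aspa is a member of the myelin list and so was part of its own covariate. The part of host brain content in the calls was not tested.

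Set against V544ins and E10 del.v2 in titles 41 to 64, E7 del had 0 of 11809 genes called by limma (0%), and 576 at an unadjusted p under 0.05. The smallest adjusted p was 0.321. With the spread taken from all 45 arrays 2 genes were called, Fendrr and Foxf1. Without E7 del replicate 3 or V544ins replicate 7, 1 gene each was called, Mfap4 and Fendrr. V544ins and E10 del.v2 themselves differed from EGFRvIII in 56 genes (0.474%), 26 higher and 30 lower. This comparison uses the same EGFRvIII arrays, so its calls are no independent support. Of the 59 calls of E7 del 11 were also among these 56. Ltbp1 was at 4.74 ± 0.77 and 4.77 ± 0.48 in V544ins and E10 del.v2 (SD, n = 6 each), lower than EGFRvIII by -3.06 ± 0.57 (adjusted p = 0.0221), and Uty at 4.89 ± 1.58 and 5.42 ± 1.18, higher by 2.42 ± 0.45 (0.0221). For Aspa the mutants differed from EGFRvIII by 0.13 ± 0.45 (adjusted p = 0.893), for Nkd1 by 0.49 ± 0.27 (0.335) and for Rnf43 by 1.09 ± 0.31 (0.0992). Rnf43 reached 5.07 in E10 del.v2 and 5.2 in V544ins of these titles and 5.08 in E10 del.v2 of titles 1 to 30, within the E7 del range of 4.7 to 5.83. The count of 56 was 246 without EGFRvIII replicate 1 and 7 without EGFRvIII replicate 6, and it lay between 11 and 150 when any other single array was left out. It was 92, 11, 27, 14 and 150 without EGFRvIII replicates 2, 3, 4, 5 and 7, and 29 to 91 over the V544ins and E10 del.v2 arrays.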

How the data were processed

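Expression was measured on Affymetrix 3' IVT arrays in 45 samples, and 11 of them are compared here. Per the labels, 100 ng of Trizol-extracted total RNA was labelled with biotin. The authors deposited log2 signals of 45141 probe sets made with RMA, per the submitters' processing notes, which name no version. RMA as usually run equalises the distributions of the arrays, so a change shared by most genes would not show. Array medians were 4.66 to 4.85. Of the probe sets 28898 had 1 gene symbol in GEO's platform table, 551 several and 15692 none.

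A gene was read from its brightest probe set on average (17097 genes), and those whose signal exceeded 4.79, the median of the table, on 3 or more arrays entered the test (11809). The model, limma 3.58.1 under R 4.3.3 with lmFit and then eBayes, had 8 genotype groups, all 45 arrays and no covariate, with Benjamini-Hochberg adjustment and a threshold of 0.05. E7 del was also compared with the mean of V544ins and E10 del.v2, and these with EGFRvIII, in the 24 arrays with titles 41 to 64. Replicates were numbered in accession order. For arrays, their number limits the precision. The procedure was tested on simulated data, with independent noise of the same spread in every array. Such data hold no subgroups of arrays, so they do not address how the calls depend on single arrays. No 2 arrays were identical (lowest correlation 0.882, highest 0.983).

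Named were, in either direction, the 15 calls of greatest size (predicted, RIKEN, clone and unnamed genes passed over), Pdgfra, Egfr, Foxf1, Fendrr and sex chromosome genes, and from each described list its 4 or fewer members of lowest p. Myelin genes with a positive difference, Mobp, Smo, Hhip, the neighbours of Foxf1 and the zinc finger and Wnt genes beyond the calls were added after their values were seen. Of 570 symbols in 35 lists 519 were on the table. The members and lists were chosen with earlier results of these data known. Alternatives changed the filter, the probe set, the normalisation, the prior, the weights, the arrays and the covariates, and 2 of them, without EGFRvIII replicates 4, 5 and 6 and without the most neuron-rich array of each group, were chosen after seeing the data. One gene is not reported here.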

Additional observations from a re-analysis of the deposited data

Results flagged for a closer look

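Of 140 values checked in the 8 EGFRvIII arrays, 6 had 1 array far from the rest, and chance flags about 1 in 20 groups. In replicate 7 the mitotic genes Kif20a and Aurkb were at 4.98 and 4.13, the lowest of the group, with the next lowest at 7.09 and 5.88, and the mean of the cell cycle list there was 5.90 against 7.57 or more in the others. In replicate 4 the mean of the granulocyte list was 6.42, with the next highest at 5.02. Slc1a3, an astrocyte glutamate transporter gene, was at 4.66 in replicate 5, with the next lowest at 5.67. Nudt12 was at 4.55 in replicate 2, with the next lowest at 5.41, and that array came nearest to the E7 del values of 3.0 to 4.04. The cause of these values was not tested.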

How the results depend on the processing

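The 59 calls of E7 del against EGFRvIII became 189 without the filter, 1706 with array weights, 365 with the host brain covariate, 37 with a minimum log2 difference of 1, 4 with only the 11 arrays compared and 6 with only titles 41 to 64. Without EGFRvIII replicates 4, 5 and 6 the count was 32, and without the most neuron-rich array of each group it was 197. It was 10 to 128 when 1 array was left out. Other settings gave 50 to 76. Against V544ins and E10 del.v2 the count of 0 became 2 with all 45 arrays and was 0 to 1 with 1 array left out. For those mutants against EGFRvIII the count of 56 became 105 without the filter, 845 with all 45 arrays and 26 with the host brain covariate, and was 7 to 246 with 1 array left out. Differences that changed sign, none of them called, were Ccne1 (0.0536 with array weights), Mcm2, Aurkb and Snap25 (-0.0918, -0.191 and 0.0195 with the host brain covariate), and Ereg, Fosl1, Epha2, Wwtr1 and Mgst2 (0.237, 0.028, 0.0412, 0.202 and 0.00193 without EGFRvIII replicates 4, 5 and 6). The cause was not tested. Of the 30 named calls 25 were lost without E7 del replicate 2, 22 without E7 del replicate 3 and 21 without EGFRvIII replicates 4, 5 and 6. Foxf1 was called in 25 of 25 alternatives, with differences from 1.70 to 2.82, and Fendrr in the 24 that tested it, from 2.02 to 2.70. The stricter filter of 9 arrays removed Fendrr, which passed the main filter only through the E7 del arrays. These alternatives reuse the same arrays and are no independent support. No paired analysis was possible because the labels give no replicate numbers.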
